A study of Mus musculus with 8 samples.

Results

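The choroid plexus epithelium genes described here are 10 genes known as markers of the cells that line the choroid plexus: Ttr, Kl, F5, Sostdc1, Folr1, Aqp1, Slc4a5, Kcnj13, Kcne2 and Clic6. They were found by matching the RefSeq identifiers of the deposited count table to mouse gene symbols. All 10 were in the table, which held 15285 genes after each gene was reduced to 1 row, and all 10 passed the filter on low counts that left 15000 genes for testing. Messenger RNA had been sequenced from the ventral mesencephalic area, the part of the midbrain that holds dopamine neurons, of 4 Ercc1 delta/+ mouse samples and 4 wild type samples. Both genotypes were on a mixed FVB:C57BL/6J background, in equal parts per the labels. The Ercc1 delta/+ mice carry 1 mutant and 1 normal allele of Ercc1. The labels name no treatment, no tissue restriction and no other allele in either group. Age and sex of the animals are not given in the labels. Nor do the labels tie every library to an animal of its own, so each p-value here rests on differences among libraries that could be partly technical.

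The choroid plexus is a fringe of vascular tissue in the brain ventricles, covered by an epithelium that makes the cerebrospinal fluid. The epithelium secretes the thyroid hormone and retinol carrier transthyretin, takes folate and other nutrients from the blood, and moves sodium, chloride, bicarbonate and water into the ventricle. It lies inside the ventricles and is not part of the midbrain tissue itself, so its transcripts in a dissected brain piece depend on how much of it the piece holds. In RNA from bulk tissue, fewer cells of a type and less RNA per cell cannot be told apart. The ratio of each gene to Ttr in the same library was therefore computed beside its level, because the amount of epithelium cancels in a ratio of genes expressed in it alone. Whether each gene was expressed only there was not tested. For a gene that other cells also express, the amount does not cancel.

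Promoter sequences from RefSeq (build GRCm38.p6) were found for 6 of the 10 genes, and 4 are shown because they belong to the genes that stood apart from the others below: Kcnj13 and Kl, the pair whose genotypes did not overlap, and Slc4a5 and Aqp1, which had the highest Pearson's r with Ttr over the 8 libraries. Each is the 250 bases before the start of the transcript, written 5′ to 3′ on the strand of the gene, and capitals mark TATAAA, the TATA box sequence.
Kcnj13, chr1:87394730-87394979, minus strand: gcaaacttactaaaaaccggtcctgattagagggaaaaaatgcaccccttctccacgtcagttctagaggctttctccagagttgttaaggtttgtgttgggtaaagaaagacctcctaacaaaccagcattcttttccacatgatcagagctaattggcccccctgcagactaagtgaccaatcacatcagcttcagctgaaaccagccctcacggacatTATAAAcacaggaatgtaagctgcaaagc
Kl, chr5:150952357-150952606, plus strand: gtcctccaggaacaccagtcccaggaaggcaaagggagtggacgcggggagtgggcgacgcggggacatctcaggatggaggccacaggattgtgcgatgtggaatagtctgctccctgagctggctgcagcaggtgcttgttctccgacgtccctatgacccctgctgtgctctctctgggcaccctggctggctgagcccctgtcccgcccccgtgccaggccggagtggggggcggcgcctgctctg
Slc4a5, chr6:83237125-83237374, plus strand: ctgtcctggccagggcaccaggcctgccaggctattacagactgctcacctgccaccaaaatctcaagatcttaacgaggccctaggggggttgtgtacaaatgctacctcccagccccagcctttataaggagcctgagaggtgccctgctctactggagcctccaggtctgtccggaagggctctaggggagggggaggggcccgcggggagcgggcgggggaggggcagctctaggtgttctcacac
Aqp1, chr6:55336049-55336298, plus strand: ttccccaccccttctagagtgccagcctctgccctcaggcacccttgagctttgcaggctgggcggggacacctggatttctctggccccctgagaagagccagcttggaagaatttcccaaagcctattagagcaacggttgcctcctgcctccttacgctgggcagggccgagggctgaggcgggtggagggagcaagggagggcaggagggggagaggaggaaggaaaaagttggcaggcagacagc
The Kcnj13 window held TATAAA on the strand of the gene, 29 bases before the start. The sequence was in 7.59% of all 32851 promoter windows of the same length, and in none of the other 5 genes with a window. The sequence TAATCC, which homeodomain factors of the Otx type bind, was searched on both strands with no overlap with the first. It was in none of the 7 windows of these 6 genes, against 6.25% of all windows, and this says only that those letters are absent from these bases. The Kl window was the richest of the 4 in G and C (66.8%, with 13 CpG pairs), and the Kcnj13 window the poorest (45.2%, with 3 CpG pairs), where the median over all windows was 52.4% and 6.

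The libraries held between 18271978 and 27152167 counts in Ercc1 delta/+ and between 20522061 and 31204701 counts in wild type. Levels are given as CPM, the counts per 1000000 counts of the library, scaled between libraries by the TMM method, and 3 counts correspond to between 0.0915 and 0.170 CPM. Ercc1 itself, which encodes a subunit of the nuclease of nucleotide excision repair, averaged 11.5 ± 1.17 CPM in Ercc1 delta/+, against 14.6 ± 0.724 CPM for wild type (SD over 4 libraries each). The groups did not overlap, as in 6.86% of all genes in the lower direction. The log2 fold change was -0.34 (SE 0.096, adjusted p = 0.114 by edgeR). Dopamine neuron genes marked the labelled region in every library: the summed level of 10 such genes lay between 295 and 551 CPM in Ercc1 delta/+ and between 392 and 598 CPM in wild type. A library that stands apart bears on all results below: Ercc1 delta/+ replicate 3 had the highest level of all 8 libraries for 10 of the 10 choroid plexus genes. The fold changes of the 10 genes and the main counts are therefore also given without it.

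Choroid plexus genes were more abundant in 3 of the 4 Ercc1 delta/+ libraries than in any wild type library, and the fourth mutant library lay at or below the wild type level for most of them. In 9 of the 10 genes, all but Clic6, replicates 1, 2 and 3 of Ercc1 delta/+ exceeded every wild type library. Ercc1 delta/+ replicate 4 lay within or below the wild type range in 8 of the 10, all but Kl and Kcnj13. The share of all genes with these orders of libraries, or with their highest level in Ercc1 delta/+ replicate 3, was not computed. These counts therefore only describe the 10 genes. Fitted log2 fold changes of Ercc1 delta/+ over wild type were positive in all 10 genes and ran from 0.37 to 2.53, with a median of 1.83, where the median over all genes tested was -0.0027 and 49.5% of genes had a positive value. At least a doubling (a log2 fold change of 1 or more) was fitted for 8 of the 10, against 0.620% of all genes tested. After adjustment, 0 of the 10 passed the edgeR quasi-likelihood test at an adjusted p of 0.05 (Benjamini-Hochberg over all genes), where 0.0467% of all genes passed and 0.0133% passed in the higher direction. Their adjusted p-values ran from 0.0673 to 0.603. At an unadjusted p of 0.05, 8 of the 10 genes stood out in the higher direction, against 9.03% of all genes in that direction and 18.6% in either. With the same threshold after adjustment, limma-voom called 0 of the 10, where it called 0.120% of all genes in that direction. Without Ercc1 delta/+ replicate 3, the median log2 fold change of the 10 genes was 1.10 and 9 were positive. In that fit 6 reached a log2 fold change of 1, against 1.01% of all genes, and 3 had an unadjusted p under 0.05 in the higher direction (Kl, F5 and Kcnj13), against 9.79% of all genes. Without Ercc1 delta/+ replicate 4 the median was 2.17.

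**Figure D1:**
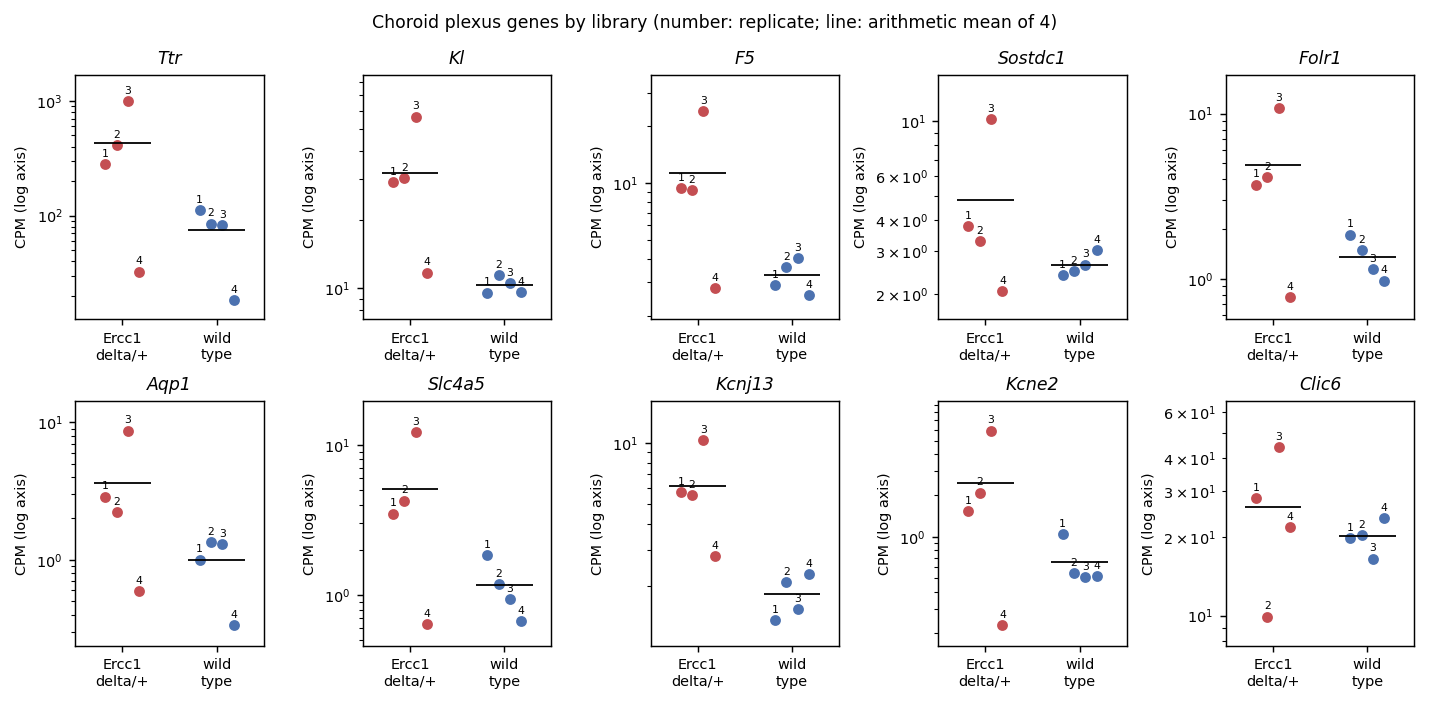
Level of each of the 10 genes in CPM (log axis) in the 4 Ercc1 delta/+ libraries (left, red) and the 4 wild type libraries (right, blue), numbered by replicate, with the arithmetic mean of 4 as a line. Ercc1 delta/+ replicate 3 is the highest point in every panel, and replicate 4 lies apart from the other mutants near or below the wild type points, except for Clic6, where Ercc1 delta/+ replicate 2 is lowest.

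Among the secreted products, Ttr, which encodes transthyretin, was the most abundant of the 10 genes and had the largest ratio of highest to lowest library. It stood at 283, 410.5, 993 and 32.5 CPM in Ercc1 delta/+ replicates 1 to 4, against 112, 85.3, 82.8 and 18.3 CPM in wild type replicates 1 to 4. The 3 highest libraries were mutant, the 2 lowest were replicate 4 of each genotype, and the groups overlapped. Ercc1 delta/+ averaged 429.7 ± 407 CPM, against 74.6 ± 39.8 CPM for wild type (SD over 4 libraries each). The fitted log2 difference was 2.53 (SE 0.86), with an adjusted p of 0.169 by edgeR. The highest library exceeded the lowest by a factor of 54.4 over all 8, by 30.6 among the mutants and by 6.13 among the wild type libraries. Without Ercc1 delta/+ replicate 3 the log2 fold change was 1.70 (SE 0.77).

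Kl encodes klotho, a membrane protein that is also shed into blood and cerebrospinal fluid and that serves as a co-receptor for the hormone FGF23. Its level was 29.1, 30.4, 56.4 and 11.7 CPM in Ercc1 delta/+ replicates 1 to 4, against 9.57, 11.4, 10.5 and 9.60 CPM in wild type replicates 1 to 4. All mutant libraries lay above all wild type libraries, but replicate 4 exceeded the highest wild type library by a small margin only. The wild type level was the steadiest of the 10 genes, with an SD of 8.47% of the mean, against 57.8% in the mutants. The log2 fold change was 1.64 (SE 0.38, adjusted p = 0.0859 by edgeR), and it was 1.21 (SE 0.29) without Ercc1 delta/+ replicate 3. Kl and Kcnj13 were the members whose groups did not overlap, 2 of 10, against 5.18% of all genes in this direction and 12.0% in either.

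F5 encodes coagulation factor V. It stood at 9.48, 9.18, 24.0 and 2.79 CPM in Ercc1 delta/+ replicates 1 to 4, against 2.90, 3.62, 4.02 and 2.56 CPM in wild type replicates 1 to 4. Mutant replicates 1 to 3 were more than double any wild type library and replicate 4 was inside the wild type range. The log2 fold change was 1.81 (SE 0.53, adjusted p = 0.120 by edgeR), and 1.13 (SE 0.38) without Ercc1 delta/+ replicate 3. Sostdc1, which encodes a secreted antagonist of BMP and Wnt signals, had a smaller difference. Its level was 3.76, 3.29, 10.2 and 2.06 CPM in Ercc1 delta/+ replicates 1 to 4, against 2.39, 2.48, 2.64 and 3.02 CPM in wild type replicates 1 to 4. Replicate 4 of the mutants was the lowest of all 8 libraries, while replicate 4 of the wild type was the highest of its group, which set Sostdc1 apart from Ttr. The log2 fold change was 0.89 (SE 0.43, adjusted p = 0.307 by edgeR), and without Ercc1 delta/+ replicate 3 it was 0.20 (SE 0.23), which is within its standard error of 0.

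In the transport genes too, Ercc1 delta/+ replicate 3 was the highest and replicate 4 the lowest mutant library, apart from Clic6. Folr1 encodes folate receptor alpha, which carries folate from blood to cerebrospinal fluid. It stood at 3.72, 4.14, 10.8 and 0.778 CPM in Ercc1 delta/+ replicates 1 to 4, against 1.85, 1.49, 1.14 and 0.976 CPM in wild type replicates 1 to 4, and the fitted log2 difference was 1.85 (SE 0.62, adjusted p = 0.166 by edgeR). Aqp1 encodes the water channel of the ventricular face of the epithelium. Its level was 2.88, 2.21, 8.69 and 0.595 CPM in Ercc1 delta/+ replicates 1 to 4, against 1.00, 1.34, 1.30 and 0.335 CPM in wild type replicates 1 to 4, and the fitted log2 difference was 1.90 (SE 0.72, adjusted p = 0.206 by edgeR). In both genes replicate 4 of each genotype held the lowest level of its group. Slc4a5 encodes a sodium bicarbonate cotransporter of the same cells. It stood at 3.48, 4.25, 12.1 and 0.640 CPM in Ercc1 delta/+ replicates 1 to 4, against 1.85, 1.19, 0.945 and 0.671 CPM in wild type replicates 1 to 4. Its log2 fold change of 2.16 (SE 0.71, adjusted p = 0.160 by edgeR) was the largest after that of Ttr. Without Ercc1 delta/+ replicate 3 the log2 fold changes were 1.07 for Folr1, 0.95 for Aqp1 and 1.26 for Slc4a5.

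The potassium channel genes differed in how far they followed the others. Kcnj13 encodes the inward rectifier Kir7.1 of the ventricular membrane. Its level was 5.76, 5.55, 10.4 and 2.79 CPM in Ercc1 delta/+ replicates 1 to 4, against 1.35, 2.08, 1.54 and 2.29 CPM in wild type replicates 1 to 4. All mutant libraries lay above all wild type libraries, and the log2 fold change was 1.76 (SE 0.37), or 1.37 (SE 0.30) without Ercc1 delta/+ replicate 3. Its adjusted p of 0.0673 by edgeR was the smallest of the 10 genes. Kcnj13 lies inside Gigyf2, on the opposite strand. Because the treatment of strand in the counting is not given in the sources used here, reads of the pair cannot be told apart where they overlap, and Gigyf2 averaged 82.0 ± 1.73 CPM in Ercc1 delta/+, against 71.6 ± 4.19 CPM for wild type (SD over 4 libraries each). Kcne2 encodes a small accessory subunit of potassium channels. Its level was 1.53, 2.10, 5.90 and 0.229 CPM in Ercc1 delta/+ replicates 1 to 4, against 1.04, 0.545, 0.512 and 0.518 CPM in wild type replicates 1 to 4. It had the fewest counts of the 10, with 5 in Ercc1 delta/+ replicate 4 and 306 in all, and its log2 fold change was 1.92 (SE 0.74, adjusted p = 0.214 by edgeR), or 0.95 (SE 0.61) without Ercc1 delta/+ replicate 3.

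Clic6, which encodes a chloride intracellular channel protein, did not share the pattern. It stood at 28.1, 9.91, 43.9 and 21.7 CPM in Ercc1 delta/+ replicates 1 to 4, against 19.8, 20.4, 16.5 and 23.7 CPM in wild type replicates 1 to 4. Here Ercc1 delta/+ replicate 2 was the lowest of all libraries, and replicate 4 of each genotype was not low. The log2 fold change was 0.37 (SE 0.35, adjusted p = 0.603 by edgeR), and it was -0.0090 (SE 0.30) without Ercc1 delta/+ replicate 3.

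**Figure D2:**
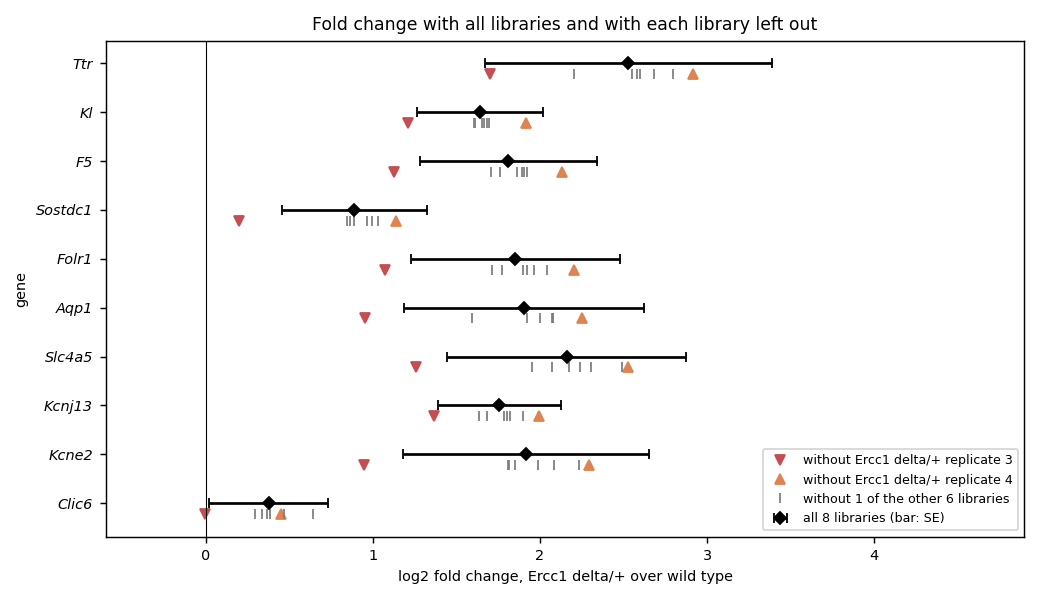
Log2 fold change of Ercc1 delta/+ over wild type for each gene with all 8 libraries (black diamond, bar 1 SE) and with single libraries left out (symbols below). Leaving out Ercc1 delta/+ replicate 3 gives the lowest value of every gene, down to 0.20 for Sostdc1 and -0.0090 for Clic6, and leaving out Ercc1 delta/+ replicate 4 gives 2.92 for Ttr and 1.92 for Kl.

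Leaving out Ercc1 delta/+ replicate 3 lowered the fitted fold by a factor of 1.78 for Ttr, 1.61 for F5 and for Sostdc1, 1.72 for Folr1, 1.93 for Aqp1, 1.87 for Slc4a5 and 1.96 for Kcne2. For Kl and Kcnj13 the factor was 1.35 and 1.31. No adjusted p of these fits passed 0.05.

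Levels of different genes can be set side by side only per length of transcript. Per kilobase, Ttr averaged 362 ± 343 CPM in Ercc1 delta/+, against 62.9 ± 33.5 CPM for wild type (SD over 4 libraries each), far above the other 9 genes in both genotypes with no overlap of the libraries' ranges. In wild type the order after Ttr was Clic6 (5.34 ± 0.781 CPM per kilobase), Kl (2.01 ± 0.170), Sostdc1 (1.48 ± 0.155), Kcnj13 (1.43 ± 0.348), Folr1 (1.04 ± 0.296), F5 (0.440 ± 0.0892), Kcne2 (0.387 ± 0.153), Aqp1 (0.378 ± 0.177) and Slc4a5 (0.227 ± 0.0987). Ranges of neighbours were separate for Clic6 and Kl, for Kl and Sostdc1, and for Folr1 and F5, and overlapped for the other neighbours after Ttr. In Ercc1 delta/+ the order after Ttr was Clic6 (6.89 ± 3.77 CPM per kilobase), Kl (6.24 ± 3.60), Kcnj13 (4.81 ± 2.47), Folr1 (3.70 ± 3.22), Sostdc1 (2.71 ± 2.05), F5 (1.53 ± 1.21), Kcne2 (1.44 ± 1.44), Aqp1 (1.37 ± 1.34) and Slc4a5 (0.999 ± 0.957). There every pair of neighbours after Ttr overlapped.

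Whether the genes varied together with Ttr was asked across the 8 libraries, which share the scaling and, within a library, the depth. On log2(CPM + 0.5), Pearson's r with Ttr was highest for Slc4a5 (r = 0.958, exact permutation p = 7.44e-05, adjusted 0.000670 over 9 relations). It was 0.950 for Aqp1 and 0.949 for Folr1 (adjusted exact permutation p = 0.000818 each), 0.926 for F5 and 0.917 for Kcne2 (0.00134 each), and 0.895 for Kl (0.00428). It was lower for Kcnj13 (r = 0.764, adjusted exact permutation p = 0.0324) and Sostdc1 (r = 0.751, 0.0213), and for Clic6 it was 0.189 (0.678). By Spearman's rho, 5 of the 9 relations passed after adjustment: Folr1 and Slc4a5 (rho = 0.976, adjusted exact permutation p = 0.00179 each), Kcne2 (0.929, 0.00670), Aqp1 (0.905, 0.0103) and F5 (0.881, 0.0130). Kl (0.690), Sostdc1 (0.643), Kcnj13 (0.548) and Clic6 (0.0952) did not, with adjusted exact permutation p-values of 0.104, 0.124, 0.192 and 0.840. The permutations exchanged libraries across both genotypes. A difference between genotypes that Ttr and a gene share therefore also gives a small p.

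The libraries farthest from the median of Ttr were Ercc1 delta/+ replicate 3 and wild type replicate 4. Without them, over 6 libraries, r was 0.982 for Folr1, 0.978 for Kcne2 and 0.976 for Slc4a5 (adjusted exact permutation p = 0.00417 each), 0.914 for Aqp1 and 0.910 for Sostdc1 (0.0375 each), and 0.899 for F5 (0.0417). With fewer libraries the relation no longer passed for Kl (r = 0.832, adjusted exact permutation p = 0.0804) and Kcnj13 (r = 0.660, 0.173), and r was -0.378 for Clic6. The libraries of highest Ttr were Ercc1 delta/+ replicates 1 to 3, and 4 libraries of a genotype are too few for a correlation within it. In wild type alone, Folr1 and Slc4a5 ordered the 4 libraries exactly as Ttr did, while Kl changed by a factor of 1.19 where Ttr changed by 6.13.

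**Figure D3:**
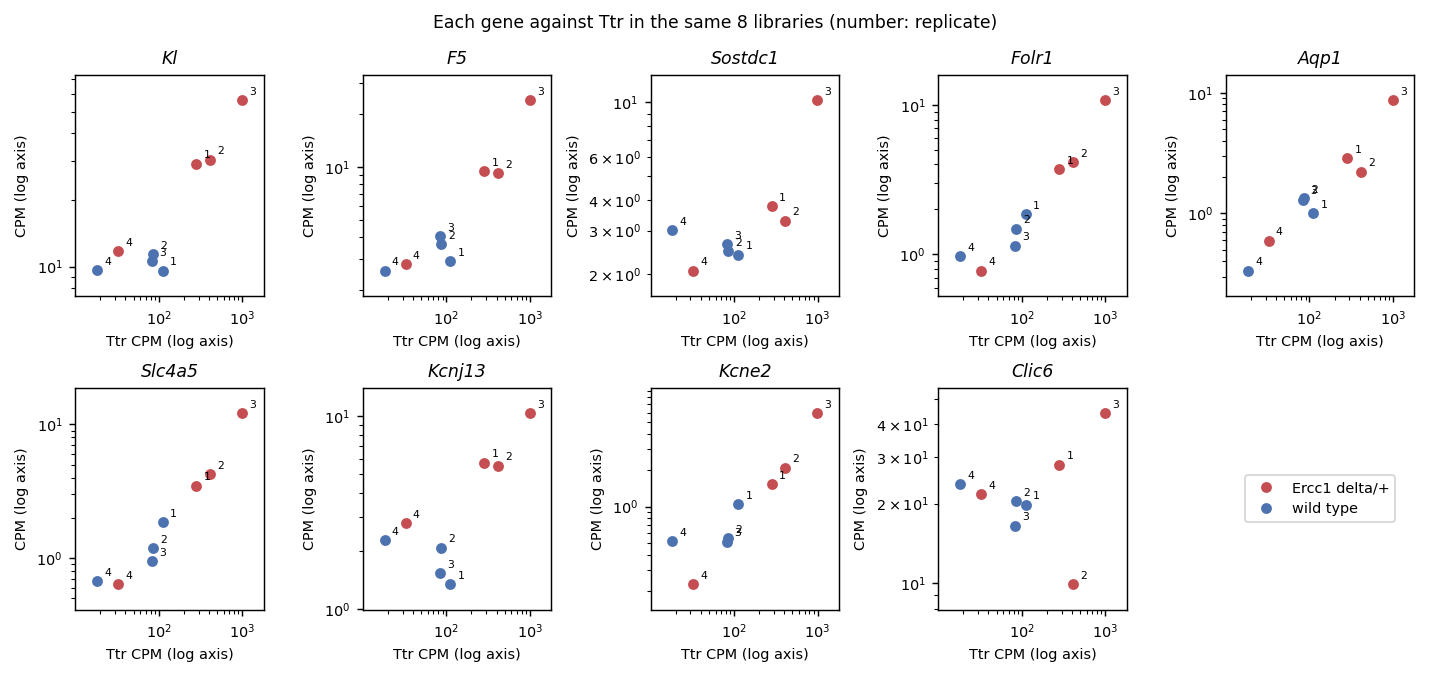
Level of each of the other 9 genes (vertical) against Ttr (horizontal) in the same library, both in CPM on log axes, with Ercc1 delta/+ in red and wild type in blue. Folr1, Slc4a5 and Aqp1 lie near a line over most of the range of Ttr, whereas Kl, Kcnj13 and Sostdc1 do not rise with Ttr among the 5 libraries of lowest Ttr (18.3 to 112 CPM) and Clic6 shows no order.

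The ratio to Ttr asks how each gene stood relative to the amount of this transcript in the same library. Slc4a5 had 12.3, 10.4, 12.2 and 19.7 counts for every 1000 Ttr counts in Ercc1 delta/+ replicates 1 to 4, against 16.6, 13.9, 11.4 and 36.7 in wild type replicates 1 to 4. For Kcne2 the numbers were 5.42, 5.11, 5.94 and 7.04 per 1000 in Ercc1 delta/+, against 9.32, 6.39, 6.18 and 28.4 in wild type. In both genes replicate 4 of wild type stood well above the other 7 libraries, which lay between 10.4 and 19.7 for Slc4a5 and between 5.11 and 9.32 for Kcne2. Folr1 had 13.1, 10.1, 10.9 and 23.9 per 1000 Ttr counts in Ercc1 delta/+, against 16.6, 17.4, 13.8 and 53.4 in wild type. For Aqp1 the ratio was 10.2, 5.38, 8.75 and 18.3 per 1000 in Ercc1 delta/+, against 8.97, 15.7, 15.7 and 18.4 in wild type.

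For the other genes the ratio covered a wider range, and replicate 4 of each genotype stood far above the rest. Kl had 103, 74.1, 56.8 and 361 counts per 1000 Ttr counts in Ercc1 delta/+ replicates 1 to 4, against 85.6, 134, 127 and 526 in wild type replicates 1 to 4. Kcnj13 had 20.4, 13.5, 10.4 and 85.9 per 1000 in Ercc1 delta/+, against 12.1, 24.4, 18.5 and 125 in wild type. The ratio of F5 ran from 22.4 to 85.9 per 1000 in Ercc1 delta/+ and from 25.9 to 140.2 in wild type, and that of Sostdc1 from 8.00 to 63.4 per 1000 in Ercc1 delta/+ and from 21.4 to 165 in wild type. For Clic6 it ran from 24.2 to 669 per 1000 in Ercc1 delta/+ and from 177 to 1295 in wild type. Replicate 4 of wild type, the library with the least Ttr, gave the highest ratio in all 9 genes.

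Dividing by Ttr made the spread over the 8 libraries smaller in 5 of the 9 genes and larger in 4. The SD of the log2 level, against that of the log2 ratio, was 1.48 against 0.59 for Slc4a5, 1.44 against 0.63 for Aqp1, 1.28 against 0.77 for Folr1, 1.47 against 0.81 for Kcne2 and 1.15 against 0.94 for F5. It was 0.98 against 1.12 for Kl, 1.04 against 1.33 for Kcnj13, 0.72 against 1.44 for Sostdc1 and 0.61 against 1.89 for Clic6. The SD of log2 Ttr itself was 1.91. A gene that varies far less than Ttr gets a wider ratio whatever its r with Ttr. This holds for Sostdc1 and Clic6, so their wider ratios say nothing on their relation to Ttr.

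**Figure D4:**
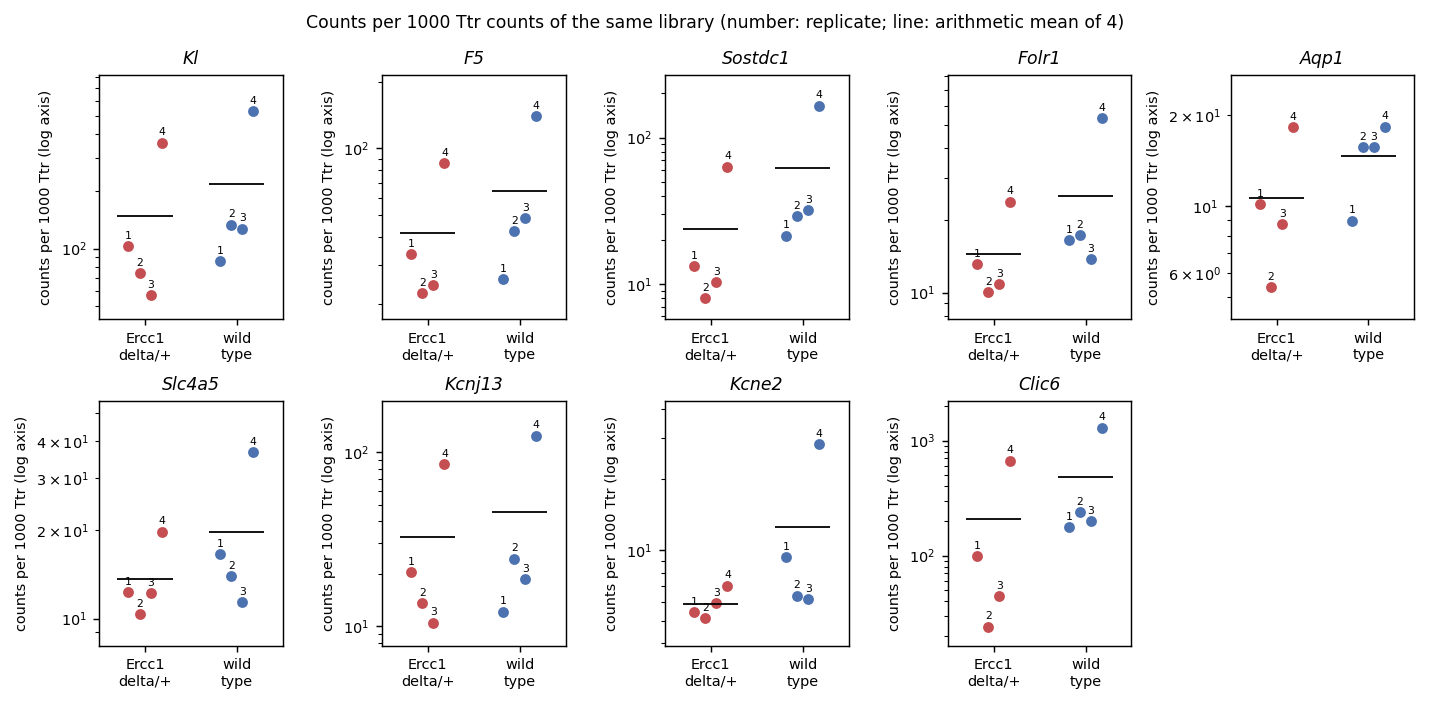
Counts of each gene per 1000 Ttr counts of the same library (log axis) in the 4 Ercc1 delta/+ libraries (left, red) and 4 wild type libraries (right, blue), numbered by replicate, with the arithmetic mean of 4 as a line. Replicate 4 of each genotype is the highest point of its group in every panel, at 361 and 526 for Kl and at 669 and 1295 for Clic6.

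Between genotypes, 0 of the 9 ratios to Ttr passed the test. The mean log2 ratio of Slc4a5, with 0.5 CPM added to both genes, was -5.94 ± 0.73 (SD, n = 4) in Ercc1 delta/+ and -5.27 ± 0.86 (SD, n = 4) in wild type, a difference of -0.66 (exact two-sided permutation p = 0.343, adjusted 0.486 over 9 ratios). The differences of mutant minus wild type were -0.60 for Kl, -0.66 for F5, -1.44 for Sostdc1, -0.84 for Folr1, -0.88 for Aqp1, -0.59 for Kcnj13, -1.02 for Kcne2 and -1.81 for Clic6. Single libraries moved these values: without wild type replicate 4 they were -0.056 for Kl, -0.81 for Sostdc1, -1.15 for Clic6 and 0.088 for Kcnj13, and lay between -0.56 and -0.18 for the other 5. Without Ercc1 delta/+ replicate 4 all 9 lay between -2.76 (Clic6) and -1.02 (Slc4a5), and without Ercc1 delta/+ replicate 3 between -1.45 (Clic6) and -0.20 (Kcnj13). Adjusted exact permutation p-values ran from 0.463 to 0.486, where 4 against 4 libraries allow no raw p below 0.0286. After adjustment over 9 ratios, none could pass unless most of the 9 separated the genotypes fully. The groups overlapped in all 9, as they did in all but 0.00667% of the genes tested. All 9 differences were negative, but so were those of 14998 of all 14999 genes (100% when rounded), which share Ttr as the denominator. With the geometric mean of the other members in place of Ttr, 6 differences were positive, from 0.074 for Aqp1 to 0.40 for Kcnj13, and those of Sostdc1 (-0.56), Kcne2 (-0.089) and Clic6 (-0.97) were negative. None of the 9 passed the threshold. With log2 Ttr as a covariate in the fit of all genes, the log2 fold change of Kcnj13 was 1.14 (SE 0.41) and of Kl 0.73 (SE 0.26), each with an adjusted p of 0.287 by edgeR, while those of Folr1, Aqp1, Slc4a5 and Sostdc1 lay between -0.053 and 0.10. F5 had 0.44, Clic6 0.18 and Kcne2 -0.22. In that fit 0 genes passed of all 15000, and 13.8% had an unadjusted p under 0.05.

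The authors' deposited table of their own comparison per transcript gives an adjusted p below 0.05 for 8 of the 10 genes, all but Sostdc1 and Clic6, against 1.02% of its rows in the higher direction and 1.86% in either. In the authors' deposited table Kl has a log2 fold change of 1.72 and an adjusted p of 2.55e-06, Kcnj13 1.80 and 4.90e-05, Ttr 2.73 and 0.000620, and Sostdc1 0.97 and 0.198. DESeq2, run on the counts here, called 5 of the 10, against 3.72% of genes in that direction and 7.67% in either: Kcnj13 (adjusted p = 0.000320), Kl (0.000390), F5 (0.00688), Slc4a5 (0.0200) and Folr1 (0.0283). Its adjusted p was 0.0742 for Ttr and 0.0625 for Aqp1, and it gave none for Kcne2.

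Genes outside the 10 were ranked by how closely they followed the mean of the members' centred log2 levels over the 8 libraries, among 14182 genes with a mean of at least 1 CPM. With so many genes over 8 libraries, and the highest mean by far in Ercc1 delta/+ replicate 3, the ranking is a description. Tmem72, a membrane protein gene, was first (r = 0.969), with 2.69, 2.95, 6.95 and 0.961 CPM in Ercc1 delta/+ replicates 1 to 4, against 0.579, 0.892, 0.827 and 0.518 CPM in wild type. After it came the copper transporter gene Slc31a1 (0.963), C1qtnf5 (0.963), the claudin gene Cldn2 (0.961), the calcium channel gene Trpv4 (0.944) and Enpp2, which encodes the secreted enzyme autotaxin (0.935). Ecrg4 (0.928), Hspa12b (0.915), Thrap3 (0.907) and Rbm47 (0.889) completed the 10, with r given in each case, and 6 of these 10 were on the list of further choroid plexus genes used below. The size of the change differed widely, from a factor of 13.4 between the highest and lowest library for Tmem72 to 1.37 for Slc31a1 and 1.13 for Thrap3. C1qtnf5 shares its counts with Mfrp, whose row held the same numbers in all 8 libraries.

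**Figure D5:**
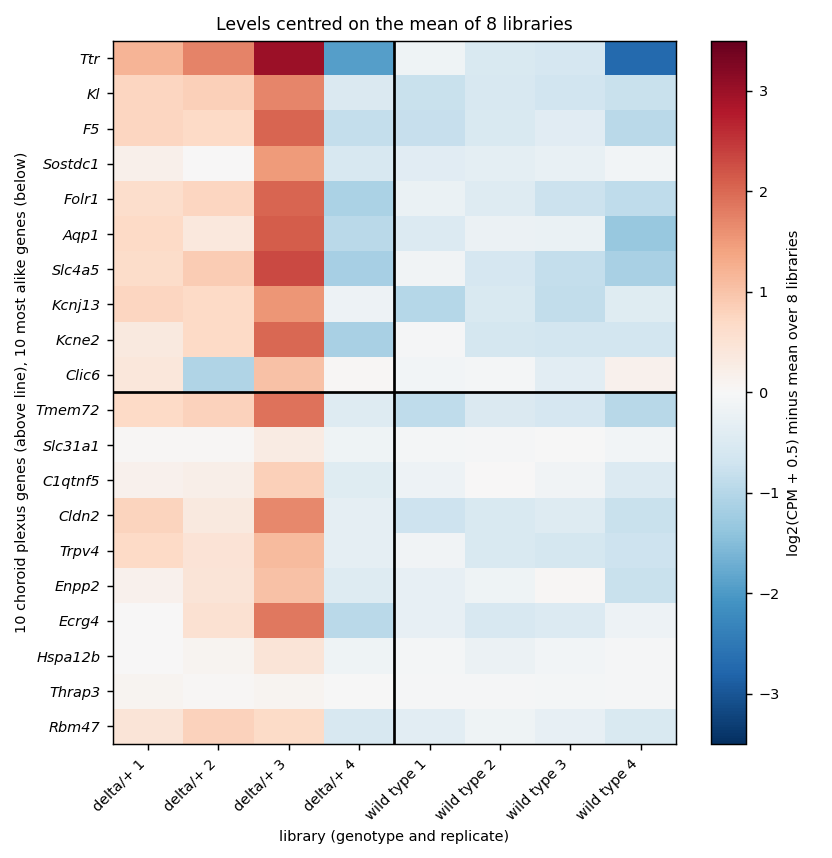
Log2(CPM + 0.5) minus its mean over the 8 libraries, for the 10 choroid plexus genes (above the line) and the 10 most alike genes (below), with Ercc1 delta/+ libraries left of the vertical line and wild type right of it. The mean over the 10 choroid plexus genes was 1.93 in Ercc1 delta/+ replicate 3 and -0.83 in replicate 4, against -0.88 to -0.41 in the wild type libraries.

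Of 40 further genes of the choroid plexus epithelium, several of which neurons or other brain cells also express, 38 were tested. Their median log2 fold change was 0.25, 29 were positive and 0 passed the edgeR test after adjustment over all genes. At an unadjusted p of 0.05, 11 stood out in the higher and 1 in the lower direction, against 9.03% and 9.57% of all genes. Without Ercc1 delta/+ replicate 3 the median was 0.095, with 7 higher and 3 lower of 38 at that threshold. Of all 15004 genes in that fit, 1469 were higher and 1411 lower at the same threshold. The groups did not overlap in 6 higher and 0 lower genes, against 5.18% and 6.86% of all genes. Apart from Tmem72 (log2 fold change 2.30, SE 0.54), the largest values belonged to Cldn2 (1.78, SE 0.44), to Car12, a carbonic anhydrase gene (1.34, SE 0.43), and to Ecrg4 (1.27, SE 0.56). Car12 differed from the members in its order of libraries. It stood at 28.6, 20.7, 22.8 and 17.7 CPM in Ercc1 delta/+ replicates 1 to 4, against 5.10, 16.3, 11.2 and 3.29 CPM in wild type, with no peak in Ercc1 delta/+ replicate 3.

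Markers of cells that border the choroid plexus or the dissected piece differed in direction from list to list. Their part in the results above was not tested. Of 15 genes of ependymal cells, the ciliated lining of the ventricles, 2 had a positive log2 fold change, the median was -0.26 and 0 passed the test. The median was -0.53 without Ercc1 delta/+ replicate 3 and -0.015 without wild type replicate 4. Their summed level lay between 55.5 and 100.1 CPM in Ercc1 delta/+ and between 46.3 and 118 CPM in wild type. Values were -0.83 (SE 0.52) for Tmem212, -0.67 for Ccdc153 and for Fam183b, and -0.49 for Dynlrb2. All 14 genes of fibroblasts of the meninges and the choroid stroma had positive values, with a median of 0.48, and 0 passed. Without wild type replicate 4 the median was 0.86. Their sum was 552, 507, 448 and 532 CPM in Ercc1 delta/+ replicates 1 to 4, against 152, 296, 327 and 564 CPM in wild type. It was thus lowest among the mutants in replicate 3 and highest among the wild type libraries in replicate 4, whereas Ercc1 delta/+ replicate 3 was the highest mutant library for all 10 choroid plexus genes and wild type replicate 4 the lowest of its group for 5 of them. The log2 fold changes were 0.84 (SE 0.41) for Fmod, 0.81 (SE 0.32) for Igf2, 0.61 for Ogn and 0.59 for Col1a2.

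Of 10 endothelial genes, including Plvap of fenestrated vessels, 5 were positive, the median was 0.02 and 0 passed, with 0.43 (SE 0.09) for Flt1, 0.23 for Esam, -0.24 for Emcn and -0.24 for Slco1a4. The summed endothelial level lay between 245 and 320.1 CPM in Ercc1 delta/+ and between 235 and 287 CPM in wild type. Of 10 genes of hippocampal and cortical neurons, which mark neighbouring tissue, 9 were positive with a median of 1.14, and 0 passed. The sum of the 10 genes was 469.8, 406, 243 and 331 CPM in Ercc1 delta/+ replicates 1 to 4, against 211, 351, 244 and 208 CPM in wild type. The highest sums were in mutant replicates 1 and 2, not in replicate 3. Wfs1 was the largest part of the sum in every library. It stood at 202, 107, 125 and 176 CPM in Ercc1 delta/+ replicates 1 to 4, against 91.5, 170, 113 and 105 CPM in wild type. Log2 fold changes were 1.91 (SE 0.97) for Neurod6, 1.80 (SE 0.52) for Fezf2 and 1.48 for Emx1. Of 10 dopamine neuron genes 2 were positive, the median was -0.11 (0.024, with 6 positive, without Ercc1 delta/+ replicate 3) and 0 passed, with 0.50 (SE 0.24) for Nr4a2, -0.44 for Foxa2, -0.33 for Ddc and -0.30 for Slc18a2. Ercc1 delta/+ replicate 3, the highest in choroid plexus genes, had the lowest dopamine neuron sum of all 8 libraries, 295 CPM. Every marker tested in these lists had at least 1 count in each library.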

How the data were processed

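The authors deposited whole-number counts per coding RefSeq transcript for 8 libraries, with log2 fold changes, p-values and adjusted p-values of their own comparison. The submitters' processing notes name edgeR, TopHat 1.3.1 and the mm9 build. Per the labels' protocols, poly(A) RNA (RIN above 8) was fragmented, copied with poly-dT and random primers, amplified for 15 cycles and pooled in 1 lane. How reads were counted over strands and repeated sequence is not given in the sources used here.

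Of 19931 rows, 19600 matched a symbol (RefSeq GRCm38.p6 and GENCODE M21, used for names, lengths and overlaps); the row of highest total stood for each gene, and 87 genes with identical counts were merged. Replicates differed beyond sampling noise (lowest chi-square over degrees of freedom 11.9). The test was edgeR 4.0.16 (quasi-likelihood, TMM, filterByExpr, R 4.3.3), checked on simulated counts; SE is the estimate over the root of F. Ratios and correlations used exact permutation. Alternatives used DESeq2 1.42.0 and limma 3.58.1. Members, lists and tests were chosen with earlier results of these data known. Named genes are the members, Ercc1, the 4 largest changes per list (mean of at least 1 CPM) and the 10 most alike. A value of 1 list gene is not reported here. Floors cover counting error only.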

Additional observations from a re-analysis of the deposited data

Results flagged for a closer look

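Groups of 4 values were examined for the CPM of 10 genes and the counts per 1000 Ttr counts of 9, in each genotype. In 11 of 38 such groups, a single library lay far from the other 3 by Dixon's criterion, taken on values without logs. The criterion flags about 1 in 20 groups by chance only if values are normally distributed. Skewed values such as these ratios can be flagged more often, so 11 of 38 is not a count to set against that rate. The level of Kcne2 was 1.04 CPM in wild type replicate 1, above the others of its group. In Ercc1 delta/+ replicate 4 the counts per 1000 Ttr counts stood apart for Kl (361), Sostdc1 (63.4), Kcnj13 (85.9) and Clic6 (669). In wild type replicate 4 they stood apart for Kl (526), Sostdc1 (165), Folr1 (53.4), Kcnj13 (125), Kcne2 (28.4) and Clic6 (1295). These 2 libraries held the least Ttr, the shared denominator, so the flags on ratios are not independent of each other. Ercc1 delta/+ replicate 3, the highest library of all 10 genes, did not meet the criterion in any of them.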

How the results depend on the processing

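Over all genes, 7 passed in the test used above, 33 with RLE scaling, 86 with upper-quartile scaling, 50 with a filter of 1 CPM in 4 libraries, 1039 with DESeq2, 52 with limma-voom, 4 with every transcript row on its own, and between 0 and 320 with a single library left out. With the replicate number as a block 0 passed. Over all genes, same-numbered libraries deviated together at correlations of -0.275, 0.168, -0.122 and 0.262. These values cannot tell whether same-numbered libraries were handled together. Every log2 fold change of the 10 genes was positive under the block. For Ttr it was 2.01 with an SE of 0.44, where the SE without the block was 0.86. Of the 10 choroid plexus genes, 0 passed in every setting except DESeq2, where 5 did, and 0 ratios to Ttr passed in any setting. For the ratios this count says little, because 4 against 4 libraries allow no raw exact permutation p below 0.0286. After adjustment none could pass unless most ratios separated the genotypes fully. The CPM added to both genes moved the differences in ratio, most for Aqp1, Slc4a5, Kcnj13 and Kcne2. With none added these were -0.55, -0.42, -0.37 and -0.79. With 2 CPM added they were -1.25, -1.04, -0.95 and -1.38. All 9 differences were negative in both settings. With the geometric mean of the other members as denominator the difference was positive for Kl (0.38), F5 (0.32), Folr1 (0.12), Aqp1 (0.074), Slc4a5 (0.32) and Kcnj13 (0.40), and negative for the other 3. With log2 Ttr as a covariate it was positive for Kl (0.73), F5 (0.44), Sostdc1 (0.059), Folr1 (0.10), Slc4a5 (0.10), Kcnj13 (1.14) and Clic6 (0.18), and negative for Aqp1 and Kcne2. With 1 library left out in turn, the difference in the ratio of Kcnj13 ran from -1.26 to 0.088 (without wild type replicate 4), and the log2 fold change of Clic6 from -0.0090 (without Ercc1 delta/+ replicate 3) to 0.64. Of 170 log2 fold changes of the 10 genes under 17 settings, 164 were counted as keeping their direction and side of the threshold, and 5 passed it with DESeq2. The 164 include Kcne2 under DESeq2, which kept its direction but was given no adjusted p. The correlation of Clic6 with Ttr was -0.378 without the 2 farthest libraries. The cause of these changes was not tested. Counts limit Kcne2, Aqp1, Slc4a5 and Folr1 most, at 5 to 17 counts in Ercc1 delta/+ replicate 4.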
